A study of Drosophila melanogaster with 12 samples.

Results

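The genes bam, bgcn, ovo, otu, mei-P26 and stil act at the start of germline development in Drosophila melanogaster, and mutations in several of them give ovaries full of undifferentiated germ cells. They were taken by gene name from the deposited tables, where all 6 were found among 14161 genes, 3 in the autosomal table (bam on arm 3R, bgcn and stil on arm 2R) and 3 in the X-linked table (ovo, otu and mei-P26). RNA-seq read counts came from the whole bodies of adult flies, with 3 replicate samples in each of 4 groups. MSL2 females carried 1 copy of H83M2-6I, a P-element msl2 construct marked with mini-white, in the genotype y w; (w+) H83M2-6I/+; +/+. MSL2 males were also sequenced, without a genotype of their own in the labels. Control males and control females were y w; +/+; TM3/+. The y and w mutations were thus shared by MSL2 females and both control groups, while TM3, a balancer of the third chromosome, was carried by the controls and not by MSL2 females. In this construct the Hsp83 promoter, which is active in most tissues, drives msl-2, the subunit of the dosage compensation complex that females normally lack, so the transgene is neither limited to a tissue nor tested here in more than 1 insertion. The labels give no ages.

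Germline stem cells of the ovary lie beside somatic niche cells whose BMP signal keeps bam silent. A daughter cell that leaves the niche turns bam on, and Bam with its partner Bgcn, an RNA-binding protein related to DExH-box helicases, drives the cystoblast into cyst divisions. Mei-P26 is a TRIM-NHL protein that acts with them on target mRNAs. In females ovo encodes germline zinc-finger transcription factors that activate otu, whose product is a deubiquitinase, and stil encodes a chromatin-associated protein that female germ cells need to survive. The ovo locus also makes Shavenbaby, a somatic form that shapes epidermal hairs. In the testis bam and bgcn stop the mitotic divisions that precede meiosis.

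Library totals ran between 46030396 and 51458014 counts in MSL2 males, 27729411 and 56843908 in MSL2 females, 41975875 and 53294740 in control males, and 33849887 and 79622278 in control females. Levels are given in CPM, counts scaled to equal library size with TMM factors, and all 6 genes passed the low-count filter that kept 13060 genes for testing. The transgene check, in CPM of the unscaled library total, gave msl-2 at 493 ± 95.2 in the males and 518 ± 88.6 in the females that carry MSL2, with 32.0 ± 1.25 in control males and 17.3 ± 1.82 in control females (SD, n = 3 each). The first MSL2 female library, replicate 1, stood apart from the other two of its group. Summed over 17 eggshell genes of the late follicle cells it reached 274 CPM, against 1280 and 2073 CPM in the other MSL2 female libraries and 5216, 4126 and 3189 CPM in control females. Summed over 10 germline markers (vas, nos, aub, AGO3, spn-E, tud, krimp, tej, vret and mael) it reached 623 CPM, against 858 and 874 CPM in the other MSL2 female libraries and 968, 943 and 866 CPM in control females. None of the 17 eggshell or 10 germline markers was at 0 in a female library. In males the germline sum was 349.8 to 362 CPM with the transgene and 375 to 405 CPM in controls. The 24 spermatocyte and spermatid markers summed to 4292 to 4633 CPM in MSL2 males, 78.8 to 94.6 CPM in MSL2 females, 3745 to 4334 CPM in control males and 89.4 to 112 CPM in control females. Of these 24, comr was at 0 in MSL2 female replicates 1 and 3 and in control female replicates 2 and 3. RNA of whole flies mixes all tissues, so fewer cells of a type and less RNA per cell cannot be told apart.

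The first comparison asked how MSL2 females differ from females without the transgene. Of the 6 genes, bam was lower in MSL2 females and the other 5 were not called, where a call is an adjusted p under 0.05 in edgeR's quasi-likelihood test over all genes. Among all genes tested, 10.3% were called, 6.62% higher and 3.67% lower in MSL2 females. With TMM factors from the autosomal genes, 74.9% of the calls were higher in place of 64.4%. The X-linked genes had a median log2 fold change of 0.19 and the autosomal genes one of -0.04. The 3 X-linked members lay below that X median, with fitted log2 fold changes between -0.48 and -0.26. None of them was called, where 22.7% of the X-linked genes were (22% higher). Without MSL2 female replicate 1 their values were -0.01 for ovo, -0.10 for otu and 0.02 for mei-P26, beside an X median of 0.18.

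**Figure D1:**
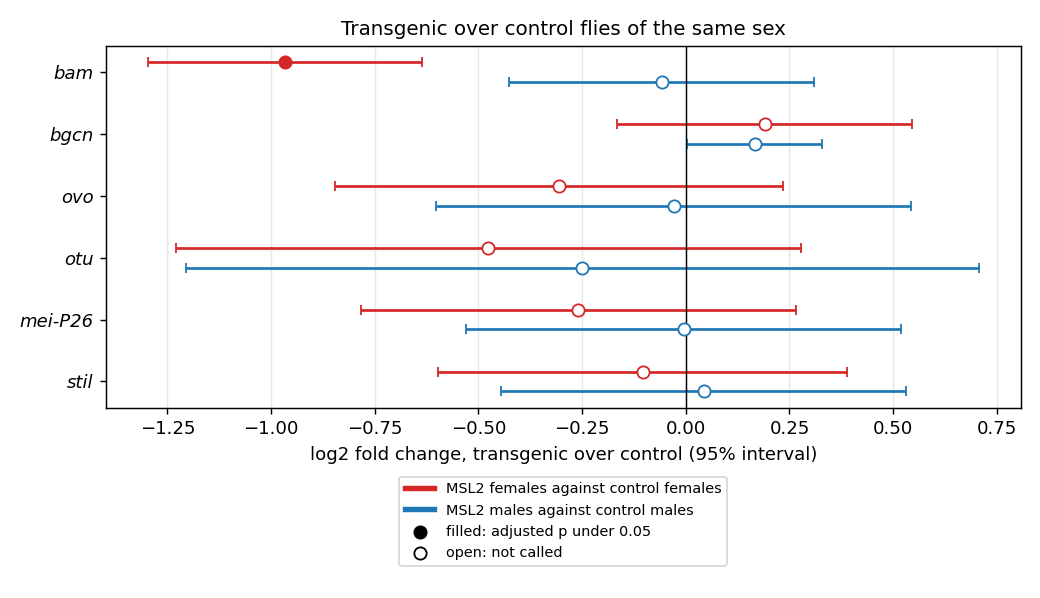
Fitted log2 fold change of each gene, transgenic over control flies of the same sex, with its 95% interval (horizontal axis, log2 scale; red, MSL2 females against control females; blue, MSL2 males against control males; filled, adjusted p under 0.05; open, not called). Only bam in females is filled, at -0.97, and 9 of the 10 intervals of the other 5 genes cross 0, the exception being bgcn in males with a lower end near 0.

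The bam gene (transcript NM_057452), the switch from stem cell daughter to cyst, gave 3.15, 4.26 and 4.77 CPM in MSL2 females, against 8.49, 8.37 and 6.96 CPM in control females. Every MSL2 female library lay below every control female library. The mean was 4.06 ± 0.828 CPM in MSL2 females and 7.94 ± 0.850 CPM in control females (SD, n = 3 each), a log2 fold change of -0.97 ± 0.15 (SE), or 1.96-fold lower, with a 95% interval of -1.30 to -0.64 and an edgeR adjusted p of 0.00304. These levels rest on 120 to 244 reads in MSL2 females and 291 to 538 reads in control females. In the fit that held the 6 female libraries alone the fold change was -0.97 and the adjusted p was 0.0681, so the call is lost there. Without MSL2 female replicate 1, the library low in germline and eggshell markers, the log2 fold change was -0.80 (edgeR adjusted p 0.0032). Because MSL2 females lack the TM3 of the controls, the transgene and the absence of TM3 cannot be told apart as the source of the difference. The same holds for every gene set between MSL2 females and controls, on any chromosome, and bam itself lies on the third. Whether MSL2 males carried TM3 is not given in the labels. In a later annotation bam shares 224 exonic bases with CG11854 on the opposite strand, a gene with 5 to 33 counts in any library.

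The bgcn gene (NM_079108), whose product binds Bam, was scarce in both groups of females. It gave 1.07, 1.07 and 1.06 CPM in MSL2 females, against 0.963, 0.847 and 0.983 CPM in control females. These ranges are apart, but the levels rest on 30 to 57 reads in MSL2 females and 33 to 76 reads in control females. Counting error alone gives a coefficient of variation of 14.6% in MSL2 females, where 0.663% was observed, and of 13.8% in control females, where 7.86% was observed. The log2 fold change was 0.19 ± 0.16 (SE; 95% interval -0.17 to 0.55; edgeR adjusted p 0.453), so a difference was not detectable at this depth.

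Divided by exonic length (1946 bases for bam and 4159 for bgcn in a later annotation), the level of bam over that of bgcn was 6.30, 8.55 and 9.66 in MSL2 females, against 18.8, 21.1 and 15.1 in control females. No MSL2 female library reached the controls, with a mean of 8.17 ± 1.71 in MSL2 females and 18.4 ± 3.02 in control females (SD, n = 3 each). The difference of the mean log2 ratios was -1.18 (exact two-sided permutation p = 0.1, the smallest that 3 against 3 allows). The ratio is made of the bam and bgcn reads described above, so it is not separate evidence.

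The X-linked genes ovo and otu, a germline transcription factor and its target, were among the most variable of the 6 within MSL2 females. For ovo (NM_080338) the levels were 73.1, 149 and 179 CPM in MSL2 females, against 177, 177 and 141 CPM in control females. For otu (NM_206656) they were 55.4, 159 and 195 CPM in MSL2 females, against 213, 200.02 and 156 CPM in control females. For both genes MSL2 female replicate 1 was the lowest of the 6 female libraries and the other two lay within or close to the range of the controls. The coefficient of variation of ovo was 40.8% in MSL2 females and 12.5% in control females, and that of otu 53.2% in MSL2 females and 15.8% in their controls. The log2 fold change of ovo was -0.31 ± 0.25 (SE; 95% interval -0.85 to 0.24; edgeR adjusted p 0.427). That of otu was -0.48 ± 0.34 (SE; 95% interval -1.23 to 0.28; edgeR adjusted p 0.372). Without MSL2 female replicate 1 the value was -0.01 for ovo and -0.10 for otu.

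In a later annotation otu shares 162 exonic bases with CG33181 on the opposite strand, which had 1626 to 2079 counts in MSL2 males, 2000 to 4080 in MSL2 females, 1646 to 2010 in control males and 2640 to 5188 in control females. The sources used here do not say whether counting used strand, and the part of such reads in the otu counts was not tested.

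For mei-P26 (NM_143765), the TRIM-NHL partner, the levels were 35.1, 62.6 and 83.2 CPM in MSL2 females, against 82.1, 75.4 and 59.05 CPM in control females. For stil (NM_057404), the survival factor of female germ cells, they were 5.38, 10.9 and 11.6 CPM in MSL2 females, against 10.6, 10.3 and 8.89 CPM in control females. Again MSL2 female replicate 1 was the lowest library for both genes, and the other two overlapped the control range or exceeded it. The log2 fold changes were -0.26 ± 0.24 for mei-P26 and -0.10 ± 0.22 for stil (SE), with 95% intervals of -0.78 to 0.27 and -0.60 to 0.39 and edgeR adjusted p of 0.490 and 0.787. Without that replicate the value was 0.02 for mei-P26 and 0.18 for stil, on the other side of 0.

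**Figure D2:**
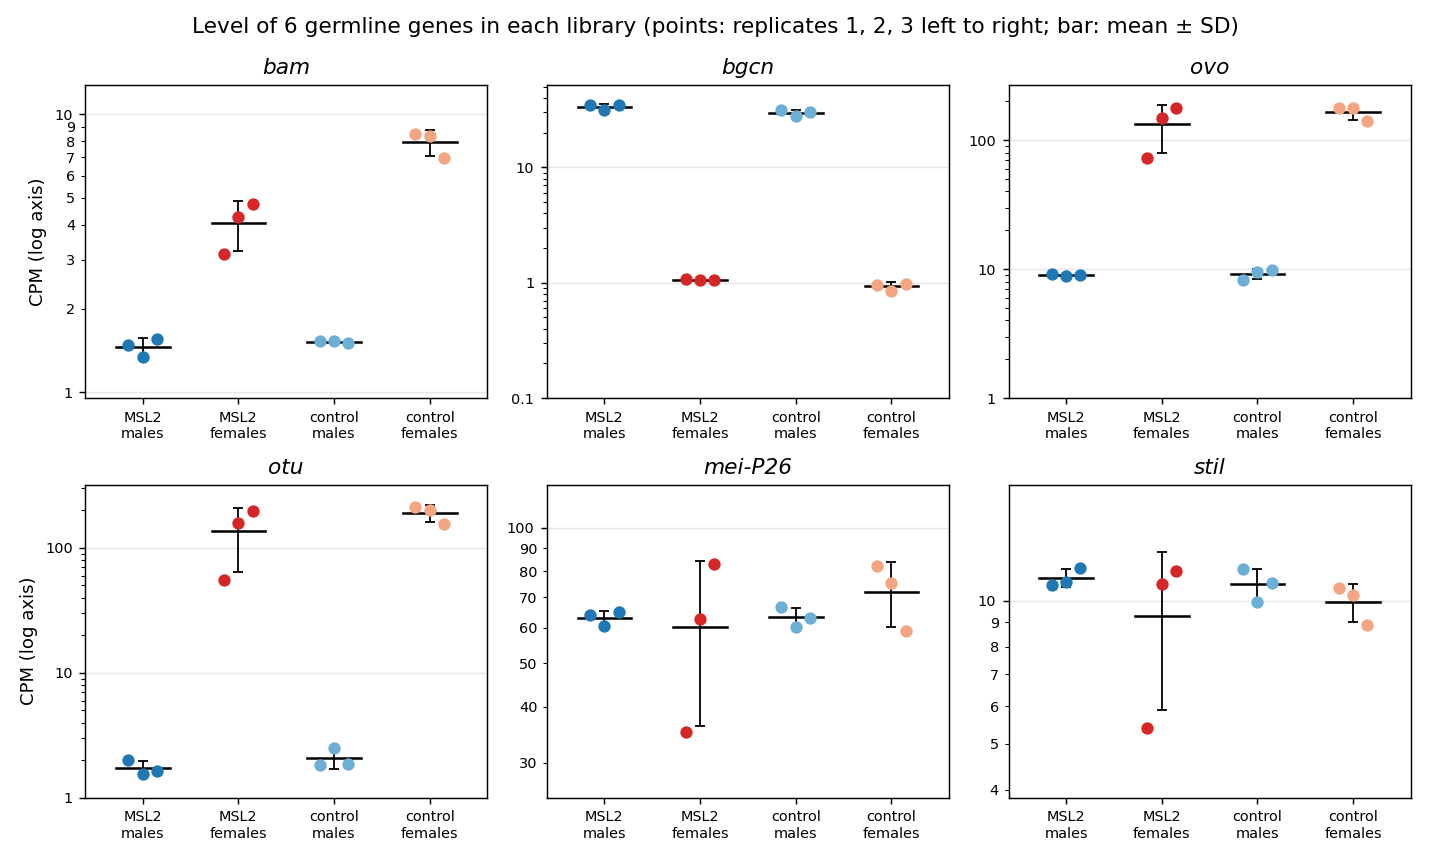
Level of each gene in CPM (vertical axis, log scale, a separate range for each gene) in the 12 libraries, as 1 point per library with the mean and SD of each group of 3. For bam the MSL2 female points, 3.15 to 4.77, lie below the control female points, 6.96 to 8.49, while for ovo, otu, mei-P26 and stil the first MSL2 female library lies lowest and the groups of females overlap.

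Each gene was next set against the germline content of the same library, as its CPM in percent of the summed CPM of the 10 germline markers. A single marker, tud, made up 81.8% of that sum in MSL2 males and 47.6% in MSL2 females. Its part was 82.4% in control males and 44.5% in control females, so in males the scale is mostly tud. On this scale bam was 0.506%, 0.497% and 0.546% in MSL2 females, against 0.877%, 0.888% and 0.804% in control females. With tud in the sum, the 3 MSL2 female libraries, including replicate 1, were close to one another and all below the controls. The part of tud ran from 41.6% to 59.0% over the MSL2 female libraries and from 42.3% to 48.7% over control females. Whether the 3 libraries stay as close without tud was not tested. The mean log2 difference was -0.73 (exact two-sided permutation p = 0.1, the smallest possible), and it was -0.63 against the sum of the other 9 markers, a scale added after the values were seen, also without overlap. The share of bgcn was 0.172%, 0.124% and 0.121% in MSL2 females, against 0.0995%, 0.0899% and 0.114% in control females. MSL2 female replicate 1 was the highest and the groups did not overlap, with a log2 difference of 0.45 (exact two-sided permutation p = 0.1). Without that replicate the difference was 0.28, and against vas alone, the geometric mean of the markers or the 9 markers other than tud the groups of females overlapped.

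The other 4 genes overlapped between the groups of females on the germline scale. Their mean log2 differences, MSL2 females minus control females, were -0.14 for ovo, -0.40 for otu, -0.08 for mei-P26 and 0.08 for stil (exact two-sided permutation p between 0.7 and 0.8). For ovo, otu, mei-P26 and stil MSL2 female replicate 1 was the lowest of the 6 female libraries on this scale too. Without it the differences were 0.08 for ovo, -0.002 for otu, 0.11 for mei-P26 and 0.27 for stil, so that those of ovo and mei-P26 turned in sign, and stil no longer overlapped (exact two-sided permutation p = 0.1).

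**Figure D3:**
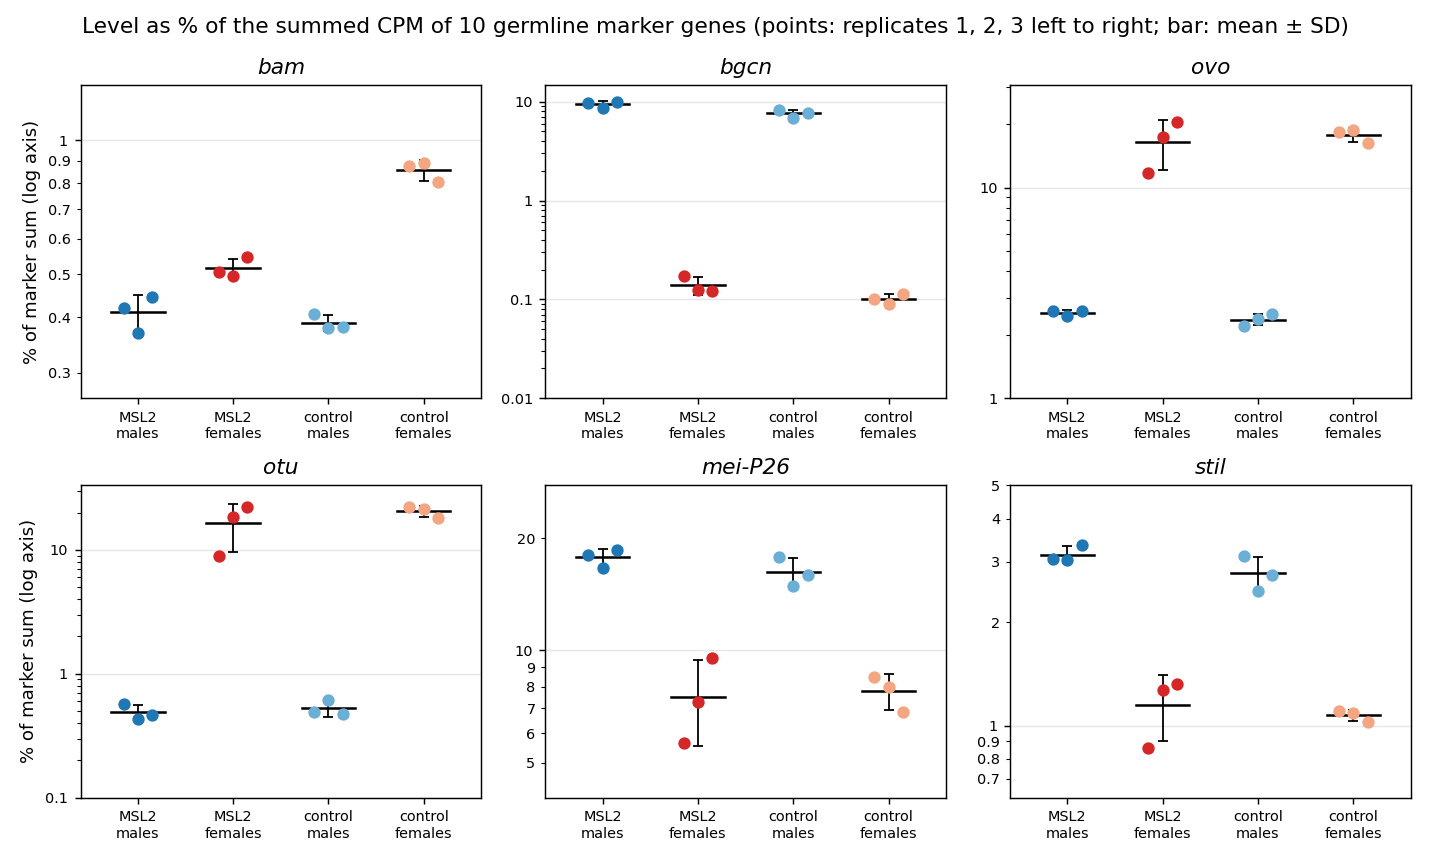
Level of each gene in percent of the summed CPM of 10 germline markers in the same library (vertical axis, log scale; points, libraries; bars, mean and SD of 3). The MSL2 female points of bam, 0.497% to 0.546%, lie below the control females, at 0.804% to 0.888%. In males the scale is mostly tud, and in MSL2 females tud is 41.6% to 59.0% of it.

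MSL2 males against control males gave no call among the 6 genes with edgeR, where 0.812% of all genes were called, 0.352% higher and 0.459% lower. At an unadjusted p under 0.05 there was 1 gene of the 6, bgcn, where 7.89% of all genes were (3.49% higher). DESeq2 called 0 of the 6 and 292 of all genes. The bgcn levels were 34.6, 31.5 and 34.5 CPM in MSL2 males, against 31.1, 27.9 and 30.5 CPM in control males. Every MSL2 male library lay above every control male library, although by little, with a log2 fold change of 0.17 ± 0.07 (SE; 95% interval 0.004 to 0.33; edgeR adjusted p 0.606). In percent of the germline sum, bgcn was 9.44 ± 0.659 in MSL2 males and 7.64 ± 0.708 in control males (SD, n = 3 each), a log2 difference of 0.31 without overlap (exact two-sided permutation p = 0.1). Both measures rest on the same bgcn reads, and the share of all genes whose male groups lay apart was not counted.

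The bam levels of males were alike in both groups, 1.49, 1.34 and 1.56 CPM in MSL2 males, against 1.53, 1.53 and 1.505 CPM in control males. The log2 fold change was -0.06 ± 0.17 (SE), with a 95% interval of -0.43 to 0.31. The level of bam over bgcn per exonic length was 0.0930 ± 0.00293 in MSL2 males and 0.109 ± 0.00702 in control males (SD, n = 3 each), a log2 difference of -0.23 without overlap (exact two-sided permutation p = 0.1). The same bgcn reads enter this ratio.

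In the other 4 genes the groups of males overlapped. The ovo level was 9.21, 8.90 and 9.05 CPM in MSL2 males, against 8.27, 9.56 and 9.90 CPM in control males, and the otu level was 2.01, 1.55 and 1.63 CPM in MSL2 males, against 1.84, 2.51 and 1.86 CPM in control males. With 72 to 108 reads of otu per male library its interval was wide (log2 -0.25 ± 0.43, SE; 95% interval -1.21 to 0.71). The mei-P26 level was 63.9, 60.4 and 64.9 CPM in MSL2 males and the stil level 10.8, 10.97 and 11.7 CPM, within 0.04 log2 units of the control males.

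The direct test of whether the difference between MSL2 and control flies was unequal in the sexes called 0 of the 6 genes with edgeR, against 1.26% of all genes (1.06% higher and 0.207% lower). For bam the difference of the log2 fold changes, females minus males, was -0.91 ± 0.22 (SE; 95% interval -1.40 to -0.41). Its unadjusted p of 0.00195 became an edgeR adjusted p of 0.0960. This was the 1 gene of the 6 with an unadjusted p under 0.05, where 12.8% of all genes were (4.66% lower). DESeq2 called 0 of the 6 and 419 of all genes. Leaving out MSL2 female replicate 3, the adjusted p of bam was 0.0401, and over the other alternatives it ran from 0.051 to 0.235. The differences of the other 5 genes lay between -0.28 (ovo) and 0.02 (bgcn), with 95% intervals that all held 0.

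The study also compared the sexes. Between control males and control females 4 of the 6 genes were called, where 71.9% of all genes were (34.4% higher and 37.6% lower in males), so a call as such is common here and the sizes carry the description. The genes split in 3 ways. Transcripts of bam, ovo and otu were lower in males, those of bgcn were higher in males, and those of mei-P26 and stil did not pass the test.

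The largest difference was that of otu, with 1.84, 2.51 and 1.86 CPM in control males against 213, 200.02 and 156 CPM in control females. All male libraries lay far below all female ones, 91.9-fold lower (log2 fold change -6.52 ± 0.45, SE; edgeR adjusted p 9.51e-08). Its activator ovo gave 8.27, 9.56 and 9.90 CPM in control males, against 177, 177 and 141 CPM in control females, 17.9-fold lower (log2 -4.16 ± 0.28, SE; edgeR adjusted p 8.28e-08). For bam, with 1.52 ± 0.0147 CPM in control males and 7.94 ± 0.850 CPM in control females (SD, n = 3 each), the level was 5.20-fold lower (log2 -2.38 ± 0.16, SE; edgeR adjusted p 7.60e-08).

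The partner of bam went the other way. The bgcn gene gave 31.1, 27.9 and 30.5 CPM in control males, against 0.963, 0.847 and 0.983 CPM in control females, 32.0-fold higher in males (log2 4.999 ± 0.09, SE; edgeR adjusted p 3.16e-12). Per exonic length, bgcn exceeded bam 9.19-fold in control males, while in control females bam exceeded bgcn 18.4-fold. In a later annotation the gene Pym lies within an intron of bgcn and shares 0 exonic bases with it.

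The other two genes were close between the sexes in CPM. The mei-P26 level was 66.5, 60.2 and 63.0 CPM in control males, against 82.1, 75.4 and 59.05 CPM in control females (log2 -0.19 ± 0.24, SE; 95% interval -0.71 to 0.34; edgeR adjusted p 0.495). The stil level was 11.6, 9.96 and 10.9 CPM in control males, against 10.6, 10.3 and 8.89 CPM in control females (log2 0.13 ± 0.22, SE; 95% interval -0.36 to 0.62; edgeR adjusted p 0.627). The germline marker sum itself was 392 ± 15.4 CPM in control males and 925 ± 53.1 CPM in control females (SD, n = 3 each), and its male part is mostly tud. In percent of that sum mei-P26 was 16.2 ± 1.45 in control males and 7.77 ± 0.856 in control females, but the size of this difference depends on the markers used. It was 2.09-fold higher in males against the sum, 6.57-fold against the 9 markers other than tud and 23.8-fold against vas alone (exact two-sided permutation p = 0.1 for each). For bam the direction turned, 2.20-fold lower in control males than in control females against the sum and 1.43-fold higher against the 9 other markers. It was also higher in control males against the geometric mean (1.15-fold) and vas alone (5.18-fold). For ovo it turned against vas alone, 1.51-fold higher in control males, and stayed lower on the other scales, 2.40-fold to 7.54-fold (exact two-sided permutation p = 0.1 for each value of bam and ovo).

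**Figure D4:**
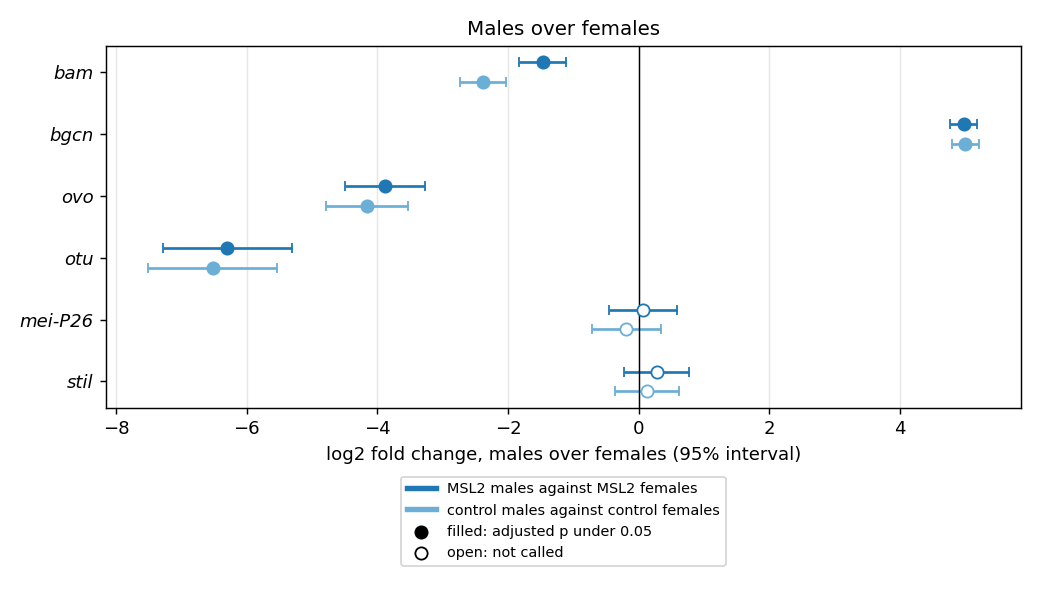
Fitted log2 fold change of each gene, males over females, with its 95% interval (horizontal axis, log2 scale; dark blue, MSL2 males against MSL2 females; light blue, control males against control females; filled, adjusted p under 0.05). Both pairs of groups give bgcn near 5 and otu beyond -6, and the values of bam, -1.47 and -2.38, lie farthest apart.

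The MSL2 flies showed the same 4 calls. Between MSL2 males and MSL2 females, where 70.1% of all genes were called (31.5% higher and 38.5% lower in males), the log2 fold changes were -1.47 for bam, 4.98 for bgcn, -3.88 for ovo and -6.29 for otu, with edgeR adjusted p of 6.18e-06 or less. Those of mei-P26 (0.06) and stil (0.27) were not called. MSL2 females were also set against control males, where 69.9% of all genes were called (38.6% higher and 31.3% lower in MSL2 females). There bam was 2.66-fold higher in MSL2 females (log2 1.41 ± 0.16, SE; edgeR adjusted p 8.96e-06), with 3.15 CPM in the lowest MSL2 female library and 1.53 CPM in the highest control male library. In the same comparison ovo was 14.4-fold and otu 66.0-fold higher in MSL2 females, bgcn was 28.03-fold lower, and mei-P26 and stil were not called. The comparisons share libraries with one another, so their values are set side by side and are not independent.

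Ordered by level, bam was lowest in MSL2 males (1.46 CPM) and control males (1.52 CPM), then came MSL2 females (4.06 CPM) and control females (7.94 CPM), and only the 2 groups of males did not differ beyond their spread. For ovo and otu both groups of females stood above both groups of males, and neither the females nor the males differed among themselves beyond their spread. For bgcn both groups of males stood above both groups of females, and within each sex the transgenic libraries lay above the controls without a call. In females this order rests on 30 to 57 reads against 33 to 76, within counting error. The share of all genes whose groups lay apart was not counted in either sex. No neighbouring groups of mei-P26 or of stil were separated by the test.

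The ovo locus was deposited as 5 transcripts and otu as 3, and reads shared by transcripts of a gene appear to be counted for each of them. If the second of 2 transcripts lies wholly within the first, the difference of their counts measures reads in sequence that only the first has. Otherwise it is the net of the parts that each has alone, and which of these holds was not checked. The excess of NM_080338 over NM_167026 was 10.1 ± 3.59% of the NM_080338 count in MSL2 males, 31.9 ± 0.941% in MSL2 females, against 11.3 ± 1.65% in control males and 32.1 ± 1.16% in control females (SD, n = 3 each). The ranges of males and females were apart, with an exact two-sided permutation p of 0.1 within the transgenic and within the control flies. MSL2 females and control females did not differ beyond the spread (difference -0.26 percentage points; exact p = 0.5).

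The excess of NM_167026 over NM_167027 showed the opposite order. It was 15.1 ± 4.18% in MSL2 males, 1.43 ± 0.954% in MSL2 females, against 15.6 ± 3.96% in control males and 0.971 ± 0.202% in control females (SD, n = 3 each). Again males and females did not overlap (exact two-sided permutation p = 0.1 in each pair), and the transgenic flies did not differ from the controls of their sex beyond the spread (exact p = 0.7 in females and 0.9 in males). The male shares rest on 412 to 471 reads of NM_080338 per library, the female ones on 3897 to 10909. The deposited tables do not name which transcript is the germline and which the somatic form.

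**Figure D5:**
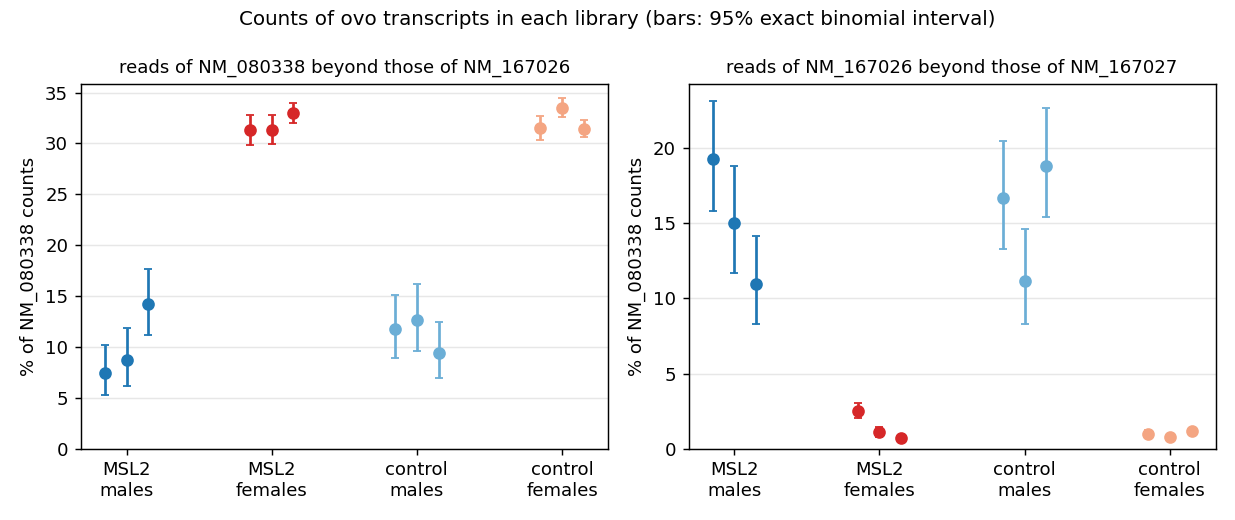
Counts that one ovo transcript has beyond another, in percent of the NM_080338 count of the same library (vertical axes from 0; points, libraries; bars, 95% exact binomial interval, which covers counting error only and assumes that the transcripts lie one within the other). In the first panel both groups of females lie above 31% and both groups of males below 15%, and in the second both groups of males lie above 10% and both groups of females below 3%.

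The genes that work with bam, bgcn and mei-P26 were followed as a list of 13 partners and targets. In MSL2 females against control females 1 of 13 rose, none fell and 12 were not called, with a median log2 fold change of -0.19 beside -0.01 over all genes. That is 1 call among 13 genes, where 10.3% of all genes were called (6.62% higher). The gene that rose was tut (CG32364 in the files, arm 3L), whose RNA-binding product joins Bam and Bgcn in the testis. It gave 4.83, 4.87 and 5.91 CPM in MSL2 males, 3.58, 5.54 and 5.36 CPM in MSL2 females, 4.10, 3.67 and 3.84 CPM in control males, and 1.31, 1.20 and 1.38 CPM in control females. Control females stood below all other libraries, and MSL2 females overlapped both groups of males. The log2 fold change in females was 1.88 ± 0.18 (SE; edgeR adjusted p 0.00018). As with bam, which shares the third chromosome with tut, the transgene and TM3 cannot be told apart.

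Among the other 12 genes of that list 4 were under 0.05 before adjustment, all lower in MSL2 females, where 14.6% of all genes were lower at that level. They were brat, which encodes a TRIM-NHL protein that represses translation (log2 -0.52), Not1, the scaffold of the deadenylase complex (log2 -0.26), and the COP9 signalosome genes CSN4 (log2 -0.19) and CSN5 (log2 -0.18), with edgeR adjusted p from 0.0795 to 0.167. For CycA, a cyclin that Bam and Otu stabilise in the ovary, the log2 fold change was -0.53 at an unadjusted p of 0.156. Between control males and control females 3 of the 13 were higher in males, 9 lower and 1 not called, with a median log2 fold change of -0.73 beside 0.01 over all genes, where 34.4% of all genes were higher and 37.6% lower. Higher in males was twin, a deadenylase gene, with 423, 367 and 384 CPM in control males against 85.2, 82.5 and 67.0 CPM in control females (log2 2.32 ± 0.13, SE; edgeR adjusted p 9.68e-09). Lower in males were Sxl, the female sex switch and a partner of Bam and Mei-P26 (log2 -1.91 ± 0.07, SE; edgeR adjusted p 3.70e-10), and CycA (log2 -3.73 ± 0.39, SE; edgeR adjusted p 3.68e-06). In CPM bgcn and twin thus stood high in males while bam stood low, and none of the 13 genes was called between MSL2 males and control males.

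Upstream of bam, 2 of 21 niche and BMP signalling genes rose in MSL2 females against control females, none fell and 19 were not called (median log2 0.03). With 6.62% of all genes higher and 10.3% called, this share is near that of the whole table. The first was fs(1)Yb, a gene of the somatic niche that maintains stem cells, with 9.36, 9.73 and 8.38 CPM in MSL2 females against 4.73, 4.91 and 6.25 CPM in control females. All MSL2 female libraries lay above all control female ones (log2 0.78 ± 0.12, SE; edgeR adjusted p 0.00276), and in the fit of the 6 female libraries alone the adjusted p was 0.0616. This gene lies in the X-linked table, where the median log2 fold change of all genes was 0.19.

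The second was Dad, an inhibitor of BMP signalling that the pathway itself induces. It gave 46.9, 47.8 and 44.2 CPM in MSL2 females, against 36.8, 38.98 and 37.5 CPM in control females, without overlap (log2 0.29 ± 0.06, SE; edgeR adjusted p 0.0157). Like bam and tut it lies on the third chromosome (arm 3R), and as for every gene here the transgene and TM3 cannot be told apart. This small rise lost its call in the fit of the 6 female libraries alone (adjusted p 0.106) and without control female replicate 1 (adjusted p 0.0664). The ligand gene dpp (log2 0.28) and the receptor gene tkv (log2 0.03) were not called by edgeR. DESeq2 called 3 of the 21 genes, all higher, with dpp the addition, where it called 2054 of all genes. Between control males and control females 13 of the 21 were lower in males, 3 higher and 5 not called, a share called near the 71.9% of all genes. The strongest by p were piwi, a piRNA pathway gene of niche and germline (log2 -5.05 ± 0.17, SE; edgeR adjusted p 1.18e-10), upd, the ligand of the testis niche (log2 2.42 ± 0.14, SE; edgeR adjusted p 2.39e-08), and fu, a kinase gene of the Hedgehog pathway (log2 -1.34 ± 0.08, SE; edgeR adjusted p 3.63e-08).

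None of 12 other germline sex determination and ovarian tumour genes was called in MSL2 females against control females with edgeR. There were 2 at an unadjusted p under 0.05, while DESeq2 called 1, stwl, as lower. For all genes the shares were 10.3% with edgeR and 30% before adjustment, and DESeq2 called 2054, so these counts do not stand out. Between control males and control females 11 of these 12 were lower in males and 1 was not called, where 37.6% of all genes were lower and 71.9% called. Besides Sxl, the strongest by p were its splicing cofactors snf (log2 -0.98 ± 0.06, SE; edgeR adjusted p 3.61e-08) and fl(2)d (log2 -0.69 ± 0.06, SE; edgeR adjusted p 4.52e-07).

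Genes that act after the cyst has formed, in the fusome, meiosis and the oocyte, gave 0 calls of 13 in MSL2 females against control females with edgeR, 1 at an unadjusted p under 0.05 and 0 with DESeq2. For all genes the shares were 10.3% with edgeR and 30% before adjustment, and DESeq2 called 2054. The median log2 fold change of the 13 was -0.04. Between control males and control females 9 of the 13 were lower in males, 2 higher and 2 not called, where 37.6% of all genes were lower and 71.9% called. Lower in males were osk, the germ plasm organiser of the oocyte (log2 -8.03 ± 0.46, SE; edgeR adjusted p 1.84e-08), and c(3)G, a synaptonemal complex gene (log2 -2.59 ± 0.13, SE; edgeR adjusted p 4.89e-09). Higher in males was ord, a gene of meiotic cohesion in both sexes (log2 5.48 ± 0.15, SE; edgeR adjusted p 2.11e-11).

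The marker lists that frame these results gave the following counts in MSL2 females against control females. Among all genes 10.3% were called with edgeR, 30% were under 0.05 before adjustment, and DESeq2 called 2054. Of the 10 germline markers 0 were called with edgeR and 2 were under 0.05 before adjustment, while DESeq2 called tud as lower, and the median log2 fold change was -0.25. Of the 17 eggshell genes 3 fell and 14 were not called, with a median log2 fold change of -1.93, where 3.67% of all genes fell. At an unadjusted p under 0.05 there were 13, all lower, where 14.6% of all genes were lower at that level. DESeq2 called 3 of the 17, with Vm34Ca in place of psd. The 3 were Fcp3C (log2 -1.18 ± 0.23, SE; edgeR adjusted p 0.0114), Cp7Fb (log2 -2.92 ± 0.81, SE; edgeR adjusted p 0.0443) and psd (log2 -1.62 ± 0.46, SE; edgeR adjusted p 0.0496), and each lost its call in at least 1 alternative, Fcp3C without control female replicate 2 (adjusted p 0.0505) and all 3 in the fit of the 6 female libraries alone (adjusted p 0.122 to 0.222). Of the 24 listed testis markers 1 fell, loj (log2 -0.33 ± 0.07, SE; edgeR adjusted p 0.0125), and 23 were not called. The level of loj was higher in control females (36.4 CPM) than in control males (28.4 CPM), so its fall does not describe testis content. DESeq2 called 2 of the 24, loj as lower and bol, a meiotic entry gene, as higher (log2 0.29 in the edgeR fit; edgeR adjusted p 0.0626). Without control female replicate 2 the adjusted p of loj was 0.0649, and in the fit of the 6 female libraries alone it was 0.0991. The part of the lower eggshell level in the bam result was not tested.

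In MSL2 males against control males no gene of the 7 lists was called with edgeR. At an unadjusted p under 0.05 there were 0 to 2 genes per list, and DESeq2 called 1, hh, as lower. Over all genes 0.812% were called with edgeR and 7.89% were under 0.05 before adjustment, while DESeq2 called 292. Between control males and control females all 10 germline markers and all 17 eggshell genes were lower in males, and 22 of the 24 testis markers were higher, where 37.6% of all genes were lower and 34.4% higher. Examples are vas (log2 -4.75 ± 0.19, SE; edgeR adjusted p 4.68e-10), Vm26Ab (log2 -8.21 ± 0.63, SE; edgeR adjusted p 2.60e-07) and the protamine gene Mst35Bb (log2 8.12 ± 0.12, SE; edgeR adjusted p 2.28e-12).

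For each of the 6 genes the genes of most similar profile were found as those with the smallest root mean square difference of centred log2 CPM over the 12 libraries, among 10964 candidates. These distances describe likeness in the same libraries, which share depth and tissue content. Closest to bam were CAP-D2, a condensin subunit gene (0.157), and Ote, which encodes the nuclear lamina protein Otefin (0.165). CAP-D2 had a log2 fold change of -0.65 in MSL2 females against control females (edgeR adjusted p 0.0469) and Ote one of -0.66 (edgeR adjusted p 0.0795), both smaller than the -0.97 of bam. Closest to bgcn were CG11983 (0.116) and alpha-Est6 (0.124), and closest to ovo were CycJ (0.107) and rhi (0.197), where rhi is a piRNA pathway gene of the germline. The nearest profiles to otu were those of fs(1)Ya (0.188) and CG6927 (0.241), to mei-P26 those of asl (0.0703) and ald (0.105), and to stil those of CG6662 (0.102) and CG4880 (0.108).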

How the data were processed

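Messenger RNA of whole adult flies was sequenced in 12 libraries, 4 groups of 3, grouped by sample title. Per the labels' protocols, TRIZOL was used for extraction and a TruSeq RNA kit for the libraries. The submitters' processing notes name TopHat, HTSeq and the genome build dm3. How HTSeq treated strand and shared reads, and with which annotation, is not stated there or in the labels. The 2 deposited tables, 1 autosomal and 1 X-linked, give each RefSeq transcript the authors' raw counts and a second column for every library, normalized per the file headers. On the values, that deposited column is a fraction, the count over its own table's column total (largest difference 5.00e-10). The fractions were not used further, because the separate totals hide shifts between the tables.

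Each gene is represented by its transcript of highest total count, since transcripts of a gene repeat most of its counts. Of the transcripts, 14 whose names a spreadsheet had turned into dates were restored through their RefSeq identifiers. Chromosome arms, exonic lengths and overlaps came from later annotations than dm3, so no coordinates are given.

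Counts were tested in R 4.3.3 with edgeR 4.0.16 (TMM over both tables, filterByExpr at a minimum of 10 counts, then a quasi-likelihood fit of group means over all 12 libraries, F test, Benjamini-Hochberg over 13060 genes, threshold 0.05, no minimum fold). SE and 95% intervals use the larger of the errors implied by F and by p. Germline-scaled values, transcript shares and the bam over bgcn ratio were compared with exact two-sided permutation tests over libraries, where p cannot go below 0.1. Exact binomial intervals cover counting error only and assume that the compared transcripts lie one within the other. The scripts were tested on simulated data with known changes. The labels call the samples biological replicates without saying what was replicated, so p-values measure the spread between these samples.

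The alternatives were DESeq2 1.42.0, its size factors, TMM from autosomal genes, no filter, the first listed transcript, only the groups compared, a replicate block, each library left out, and other germline scales. The genes and the 7 lists were chosen with earlier results of these data known, and Sxl and nos stand in 2 lists each. Named are the 6 genes, up to 3 called genes of each list with the smallest p in each of 2 comparisons (females with and without the transgene, control males and females), and the 2 nearest profiles of each gene. Outside this rule brat, Not1, CSN4, CSN5, bol, Vm34Ca, dpp, tkv, tud, stwl and hh were named after their values were seen.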

Additional observations from a re-analysis of the deposited data

Results flagged for a closer look

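The difference between MSL2 and control flies was unequal in the sexes for tut and fs(1)Yb, a partner and a niche gene of bam, by the test of that difference itself. That is 1 call among the 13 partners and targets and 1 among the 21 niche and BMP genes, where 1.26% of all genes were called. The labels give MSL2 males no genotype, and MSL2 females lack the TM3 balancer of the controls. For both genes, tut on the third chromosome and fs(1)Yb on the X, the transgene and TM3 thus cannot be told apart. For tut the difference of the log2 fold changes, females minus males, was 1.45 ± 0.24 (SE; edgeR adjusted p 0.0189). Its log2 fold change was 1.88 in MSL2 females against control females, and its levels were 4.83, 4.87 and 5.91 CPM in MSL2 males and 4.10, 3.67 and 3.84 CPM in control males. The call was lost under the replicate block (adjusted p 0.0674) and in 6 of the settings that leave out a library, with adjusted p up to 0.0614.

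Of the X-linked genes 5.54% were called in this test (5.49% higher), and their median difference was 0.22. For fs(1)Yb the difference was 0.98 ± 0.17 (SE; edgeR adjusted p 0.0254). It gave 2.35, 2.50 and 2.59 CPM in MSL2 males and 2.81, 2.76 and 2.95 CPM in control males, so the male groups lay in the opposite order to the female ones. The call was lost under the replicate block (adjusted p 0.0801) and in 9 of the settings that leave out a library, with adjusted p up to 0.0782.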

How the results depend on the processing

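Of 498 alternative values of the fold changes of the 6 genes, 1 lost its call and 1 gained one. With only the groups compared in the fit, 0 of the 6 genes were called in MSL2 females against control females. In the difference of the transgenic flies from controls between the sexes the number called ran from 0 to 1 over the settings that leave out a library, with bam called without MSL2 female replicate 3. All 4 calls in each comparison of males with females held in every alternative run. Of the uncalled values 23 changed sign, none beyond 0.21 in size. On the germline scale bam gave -0.81 in females against vas alone, -0.64 against the geometric mean of the markers and -0.63 against the 9 markers other than tud, which was chosen after seeing the data. Same-numbered libraries did not deviate together as a rule (18 correlations from -0.56 to 0.60, 5 of them over 0.1), and 2 of 12 libraries correlated best with their own number. The highest correlation, 0.60, was that of control male and MSL2 male replicate 2. With the replicate block the adjusted p of bam in females was 0.0144, and the block ended no call among the 6 genes. Whole-table counts moved more. MSL2 females against control females had 1344 calls, 2054 with DESeq2, 669 with the block, 156 with only the groups compared, 543, 584 and 826 without control female replicates 2 and 1 and MSL2 female replicate 2, and 2851 without MSL2 female replicate 3. MSL2 males against control males had 106, with 292, 51 and 287 in these settings and 41 to 57 with a library left out. The difference between the sexes had 165, with 419 and 10 under DESeq2 and the block and 23 (without MSL2 male replicate 3) to 250 (without MSL2 female replicate 3) with a library left out. The cause of these shifts was not tested. Depth limits bgcn in females, at 30 to 76 reads a library, and bam and otu in males, at 62 to 108.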
